A study of Macaca mulatta with 24 samples.

Results

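The effect of wood smoke during exposure was measured in differentiated airway epithelium of rhesus macaques as the mean difference between smoke and air libraries over 2 exposure times. The libraries were taken by their labels: 16 of the 24 of the series, of which 8 came from smoke cultures and 8 from air cultures. The 4 groups were cultures exposed to diluted whole wood smoke for 1 day or for 5 days, and cultures exposed to filtered air for the same times, 6 hours on each day. The other 8 libraries, from smoke and air cultures left for 7 days after 5 days of exposure, were used for 1 comparison at the end. All cultures were primary tracheobronchial cells of adult females, grown on inserts at an air–liquid interface in medium with retinoic acid. The same 4 animals, S1 to S4, gave 1 library to each group, and they were 5463, 2930, 2238 and 1128 days old. No 2 animals shared an age, so an effect of age cannot be told apart from one of the animal. Nothing in the labels says that an animal gave more than 1 culture to a group, so each group of 4 measures the spread between animals.

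Wood smoke carries polycyclic aromatic hydrocarbons and reactive aldehydes. The hydrocarbons are ligands of the aryl hydrocarbon receptor (AHR), a cytosolic receptor that moves to the nucleus and switches on cytochrome P450 genes of the CYP1 family. Aldehydes and oxidants release the transcription factor NRF2, which drives genes for quinone reduction, glutathione and NADPH supply. Chaperones of the cytosol and of the endoplasmic reticulum fold new proteins, and their genes respond to the load of unfolded protein. Heterogeneous nuclear ribonucleoproteins (HNRNPs) and serine/arginine-rich proteins (SRSFs) bind nascent RNA and set splicing, and several of their own transcripts are spliced into forms that are degraded.

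Values were normalized counts, with library totals of 12.5 to 13.5 M in smoke and 11.8 to 15.2 M in air, and approximate depths of 10.4 to 15.9 M and 9.46 to 17.4 M reads. One library stood apart: the 5-day air library of S1 (FA5D_1), with a median correlation of 0.854 to the other libraries, against 0.929 to 0.955 for the other 15. Its mitochondrial share was 8.49%, against 2.95 to 3.67% in the other 5-day air libraries, but the 1-day air library of S1 had 8.82%. The CDH1 level of 298 and TP63 level of 84.8 in FA5D_1 were the lowest in air. Counts of calls are therefore given with it (16 libraries) and without it (15 libraries), where the 5-day smoke library of S1 has no partner. Effects of genes called without it are given in both fits where it moved them by over 1.5 times. Pooled effects of genes called in neither fit, such as MKI67 and HMOX1, are given with 16 libraries only, whether or not FA5D_1 moved them. Markers of the labelled tissue were present: EPCAM had a median of 1156 normalized counts in smoke and 1163 in air, KRT5 of 36178 and 43326, and FOXJ1 of 3850 and 3147. The fibroblast genes DCN and LUM and the endothelial gene CDH5 were listed at 0 in every library, and the leukocyte gene PTPRC had a median of 0 in both. Other genes of those lists were detected, among them PDGFRA with medians of 593 in smoke and 542 in air, CD68 with 451 and 494, and VWF with 90.2 and 73.9. In bulk samples such as these, fewer cells of a type and less RNA per cell cannot be told apart.

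With all 16 libraries, 14 of 13794 genes passed an adjusted p of 0.05, which is 0.101% of the genes tested, with 6 higher (0.0435%) and 8 lower (0.0580%) in smoke. The higher genes were CYP1B1, HNRNPDL, WDR13, TRIM72, HNRNPD and GARS1. The lower ones were H4C14, JUNB, BANP, PDIA4, EIF4A2, HNRNPH3, BCS1L and HSP90B1. CYP1B1 apart, their effects were below 1 on the log2 scale, and the median size over the 14 was 0.524. Each of the 14 had the same sign in 8 of 8 pairs of the same animal and time. Smoke and air libraries did not overlap for 11 of the 14 at 1 day, for 11 at 5 days and for 9 at both, against 4.11%, 3.49% and, in the same direction at both, 0.283% of all genes. This is a description, since the same values chose the genes. An unadjusted p under 0.05 was reached by 1320 genes.

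**Figure D1:**
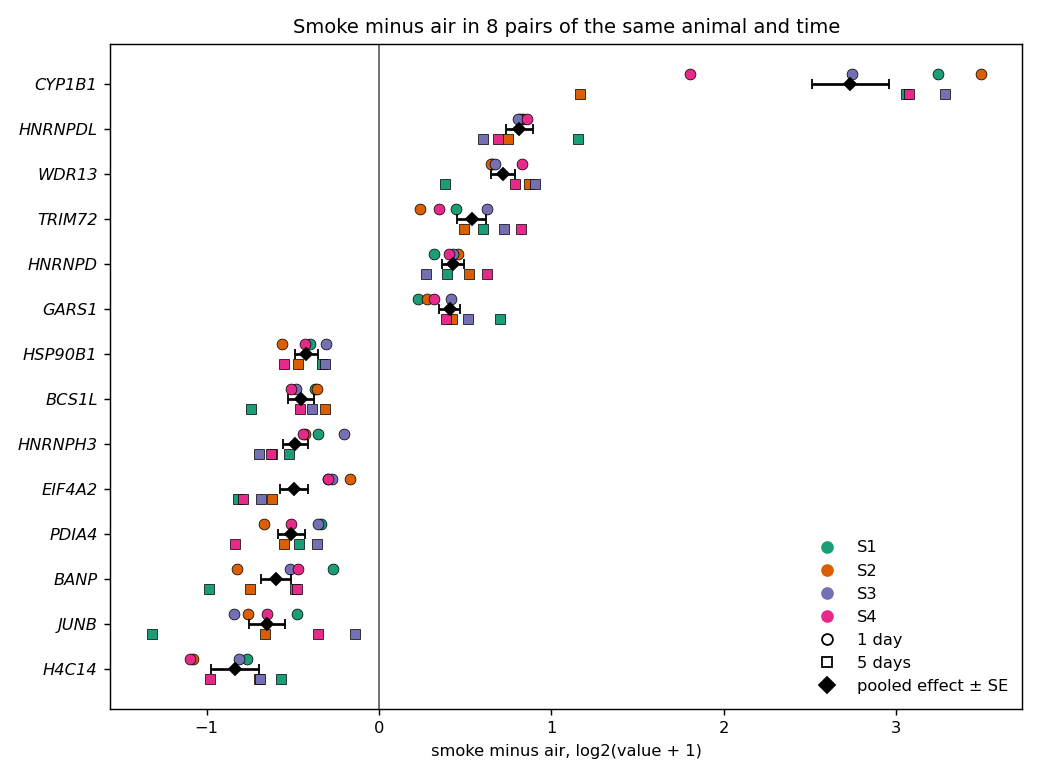
Smoke minus air difference (log2(value + 1)) of the 14 genes in the 8 pairs of the same animal and time, with colours for animals, circles for 1 day and squares for 5 days; black diamonds are the pooled effect with its SE. All 8 points of each gene lie on 1 side of 0, and CYP1B1 lies furthest out at 2.74.

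CYP1B1, a cytochrome P450 that oxidizes polycyclic aromatic hydrocarbons and is a classical AHR target, had the largest effect. After 1 day it had 1649, 2335, 1643 and 1081 normalized counts in smoke libraries of S1 to S4, against 173, 206, 244 and 308 in air. After 5 days it had 303, 148, 311 and 334 in smoke, against 35.5, 65.1, 31.0 and 38.7 in air. All smoke libraries lay above all air libraries of the same time. Levels in both groups were lower at 5 days, where the 4 smoke values, 148 to 334, spanned a range close to that of air at 1 day. The pooled effect was 2.74 ± 0.22 on the log2 scale (SE, limma adjusted p = 0.000137), a 6.66-fold difference, and 2.72 ± 0.21 without FA5D_1 (adjusted p = 1.13e-06). CYP1B1 was the only one of the 14 that passed in each fit without 1 library and in each fit without 1 animal. With 16 libraries it was also the only gene called when each animal was reduced to a single value (adjusted p = 0.0195). Without FA5D_1, where the value of S1 is its 1-day pair alone, that reduction called 1237 genes.

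CYP1A1, another P450 gene under AHR, was too low for the filter, with 10 or more in 2 of the 16 libraries. Its values after 1 day were 60.6, 3.21, 11.8 and 2.23 in smoke, against 1.72, 0.926, 0.781 and 0 in air. After 5 days they were 7.86, 2.99, 2.87 and 3.15 in smoke, against 0, 1.05, 0 and 0 in air. Smoke was higher in 8 of 8 pairs, by a mean of 2.29 on the log2(value + 1) scale (SD 1.17), which understates the change of so low a gene. The exact sign-flip permutation test over the 8 pairs gave p = 0.0078125 (two-sided), the smallest that 256 assignments allow. With 1 value per animal the smallest p is 0.125, and that was the p found.

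Of the 9 AHR targets and partners that could be tested, 1 was called higher with 16 libraries, and 4 higher and 1 lower with 15, against 3.54% higher and 4.14% lower among all genes. The 4 higher genes were CYP1B1, the aldehyde dehydrogenase ALDH3A1 (0.54 ± 0.08), the amino acid transporter SLC7A5 (0.46 ± 0.08) and the quinone reductase NQO1 (0.37 ± 0.10), each value the 15-library effect. The receptor gene AHR itself was lower without FA5D_1 (adjusted p = 0.0341), with an effect of −0.28 ± 0.08 without FA5D_1 and −0.13 ± 0.15 with it; ALDH3A1, SLC7A5 and AHR are named after their values were seen. AHRR, the repressor that AHR induces in a feedback loop, was not called. It had 756, 964, 769 and 765 in 1-day smoke, against 752, 926, 748 and 739.9 in 1-day air, and 853, 1159, 883 and 947 in 5-day smoke, against 989, 1429.8, 988 and 1169.8 in 5-day air. Its pooled effect was −0.10 ± 0.07 (adjusted p = 0.675), and groups overlapped at both times. The list's median was 0.258 with 16 libraries and 0.127 with 15, against 0.00969 and 0.00159 over all genes.

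HNRNPDL, an RNA-binding protein gene related to HNRNPD that acts in transcription and splicing, rose in smoke. After 1 day it had 1982, 1368, 1590.5 and 1676 normalized counts in smoke, against 1109, 775, 909.7 and 925 in air, and after 5 days 1448, 1137, 1310.2 and 1121 in smoke, against 650.3, 677, 862 and 695 in air. The groups did not overlap at either time, and the 1-day differences of the 4 animals were close together, at 0.81 to 0.86 on the log2 scale. The pooled effect was 0.81 ± 0.08 (SE, adjusted p = 0.000502) and 0.76 ± 0.05 with 15 libraries. HNRNPD, whose protein binds AU-rich elements and governs mRNA decay, had 2128, 1955, 1966 and 2094 in 1-day smoke, against 1707, 1420.3, 1461 and 1577 in 1-day air. Its 5-day values were 1858, 1429, 1672 and 1647 in smoke, against 1415, 995, 1382 and 1067 in air. Again neither time showed overlap, and the pooled effect was 0.43 ± 0.06 (adjusted p = 0.0282). HNRNPH3, a splicing regulator of the HNRNP H family, fell: 1243, 1121, 1151 and 1114 in 1-day smoke, against 1592, 1513, 1323 and 1514 in 1-day air. At 5 days it stood at 1204, 1387, 1259 and 1279 in smoke, against 1728, 2134, 2041 and 1975 in air. Every air value at 5 days was above every smoke value of both times. The pooled effect was −0.49 ± 0.07 (adjusted p = 0.0282).

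Among all 33 HNRNP and SRSF genes tested, calls went both ways: 2 higher and 1 lower with 16 libraries, and 6 higher and 6 lower with 15, where 3.54% of all genes were higher and 4.14% lower. The 12 called with 15 libraries included the splicing activators SRSF2 (0.47 ± 0.09) and SRSF5 (0.34 ± 0.07) among the higher. HNRNPC (−0.24 ± 0.04), which binds uridine tracts of nascent RNA, and SRSF10, which represses splicing when dephosphorylated, were among the lower. The effect of SRSF10 was −0.45 ± 0.07 without FA5D_1 and −0.24 ± 0.20 with it. SRSF2 had a larger effect at 5 days (0.81 in the 3 animals other than S1) than at 1 day (0.21), a difference called without FA5D_1 (adjusted p = 0.00982). These 4 are named after their values were seen. The median over the list was 0.0319 with 16 libraries and 0.0258 with 15, against 0.00969 and 0.00159 over all genes. Of 23 further nuclear speckle genes and SR protein kinases, 0 passed with 16 libraries, while 1 was higher and 3 were lower with 15, against the same shares of all genes. RSRP1, an arginine/serine-rich protein gene, had the largest of these effects (−1.06 ± 0.21, adjusted p = 0.00547). NKTR, a cyclophilin with an RS domain, was lower (−0.44 ± 0.07, adjusted p = 0.00238). SRRM1, a splicing coactivator, was higher (0.21 ± 0.04, adjusted p = 0.0042).

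**Figure D2:**
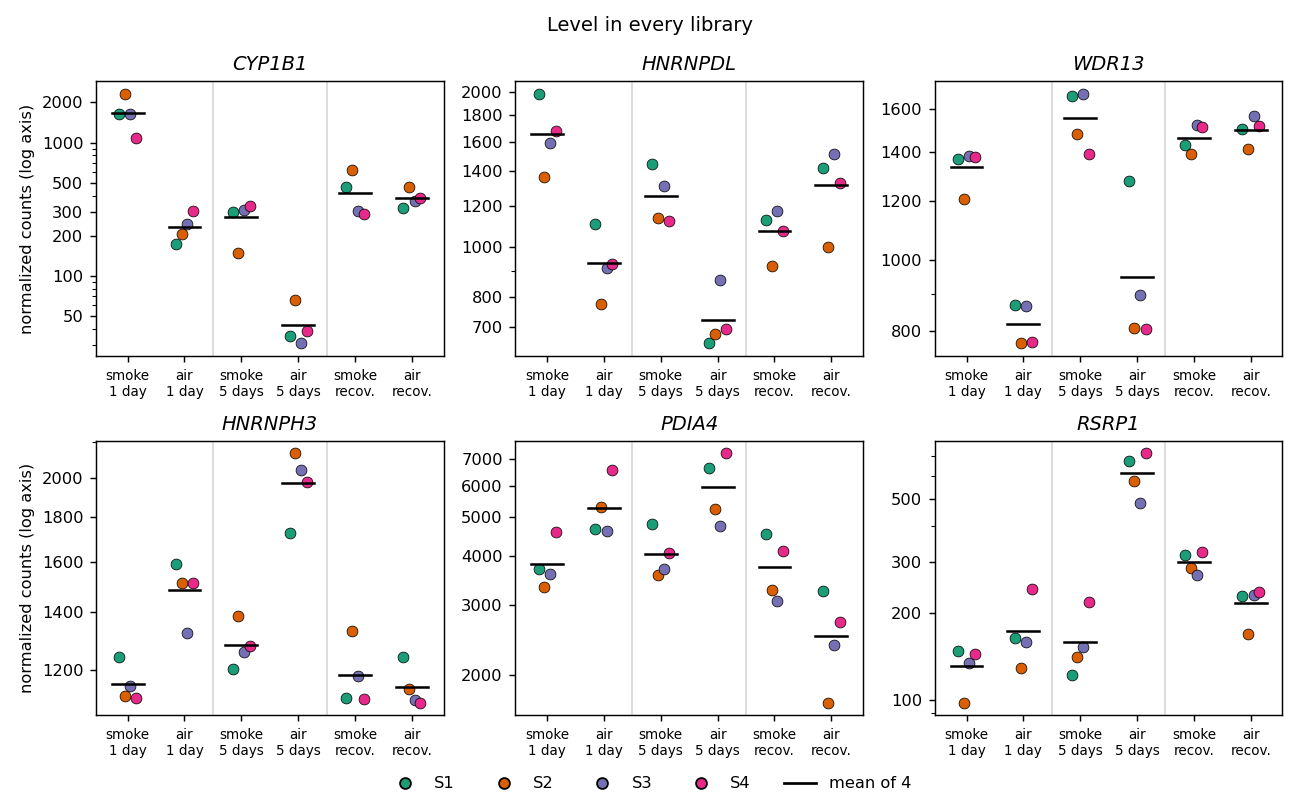
Normalized counts (log axis) of 6 genes in every library of the 6 groups, with colours for animals and a line at the mean of 4. CYP1B1, HNRNPDL and WDR13 are higher in smoke at 1 and 5 days; HNRNPH3 and PDIA4 are lower; RSRP1 differs most at 5 days, and at recovery PDIA4 and RSRP1 are higher in smoke.

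A pair of endoplasmic reticulum chaperones fell. PDIA4, a protein disulfide isomerase, had 3705, 3334, 3599 and 4596 normalized counts in 1-day smoke, against 4678, 5294, 4602 and 6550.4 in 1-day air. After 5 days the values were 4811, 3573, 3691 and 4058 in smoke, against 6631, 5242, 4744 and 7243 in air. At 1 day the groups did not overlap, and at 5 days the highest smoke library (S1) lay above the lowest air library (S3), although each animal was lower in smoke. The effect was −0.51 ± 0.08 (SE, adjusted p = 0.0286). HSP90B1, the HSP90 of this compartment, had 11217, 11116, 12319 and 14937 in 1-day smoke, against 14821, 16442, 15245 and 20105 in 1-day air. It had 14843, 11032, 12854 and 14458 in 5-day smoke, against 18709, 15294, 15966 and 21177 in 5-day air. Its groups overlapped at 1 day, by the smoke library of S4, and not at 5 days. The effect was −0.42 ± 0.07 (adjusted p = 0.0338).

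All 20 genes of the endoplasmic reticulum stress list could be tested, and 18 had effects below 0. With 16 libraries 2 were called, both lower, and with 15 libraries 12 were lower and 0 higher. Over all genes 0.0580% were lower with 16, and 4.14% lower and 3.54% higher with 15. The median effect was −0.184 with 16 libraries and −0.207 with 15. Besides PDIA4 and HSP90B1, the 12 included the master chaperone HSPA5 (−0.34 ± 0.07), CRELD2 (−0.50 ± 0.11), HYOU1 (−0.23 ± 0.06) and the transcription factor XBP1 (−0.20 ± 0.06), which were named after their values were seen. Heat shock proteins and cochaperones, mostly of the cytosol and mitochondria, had 0 of 22 called with 16 libraries (13 at an unadjusted p under 0.05), and 1 higher and 11 lower with 15, against the same shares of all genes, with a median of −0.202. HSPH1, a nucleotide exchange factor of HSP70, had an effect of −0.49 ± 0.05 (adjusted p = 6.91e-05) with 15 libraries but −0.28 ± 0.19 with 16. HSPD1, the mitochondrial chaperonin, had −0.37 ± 0.04 (adjusted p = 0.000159), against −0.30 ± 0.08 with 16. The member called higher was FKBP5, a cochaperone that glucocorticoids induce (0.23 ± 0.05), which was named after its value was seen. Without a block for animal, 0 endoplasmic reticulum genes and 4 heat shock genes, all lower, were called in the 15-library fit.

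The other called genes have varied roles. WDR13, a WD-repeat protein gene, had 1369.9, 1208, 1379.7 and 1376 in 1-day smoke, against 868, 770.5, 865 and 774 in 1-day air, and 1668, 1479.8, 1679 and 1389.8 in 5-day smoke, against 1279, 809.5, 895 and 805 in 5-day air. Neither time overlapped; FA5D_1, at 1279, was the highest air library. The effect was 0.72 ± 0.07 (adjusted p = 0.00062) and 0.77 ± 0.04 without that library. GARS1, the glycyl-tRNA synthetase, had 1130.5, 1093, 1229.6 and 976 in 1-day smoke, against 966, 901, 922 and 781 in 1-day air, and 1103, 857, 962 and 828 in 5-day smoke, against 679, 638, 673 and 632 in 5-day air. No smoke value fell within the air range at its time, and the effect was 0.41 ± 0.06 (adjusted p = 0.0286). TRIM72, known in mouse muscle for membrane repair, had smoke values of 1079 to 1840 and air values of 736 to 1213, with overlap at both times. Its effect was 0.54 ± 0.08 (adjusted p = 0.0286). In RefSeq's annotation of T2T-MMU8v2.0 this gene overlaps ITGAM, and which reads were assigned to its row was not tested.

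JUNB, a subunit of the AP-1 transcription factor, fell to 351, 371, 233 and 256 in 1-day smoke, against 489, 631, 418 and 402 in 1-day air. It stood at 272, 345, 288 and 287 in 5-day smoke, against 681, 547, 318 and 367 in 5-day air, where FA5D_1 was the highest. The effect was −0.65 ± 0.11 with that library and −0.58 ± 0.08 without it (adjusted p = 0.0338 and 0.000594). EIF4A2, an RNA helicase of translation initiation, had 3668, 3582, 3656 and 3409 in 1-day smoke, against 4499.6, 4028, 4418 and 4195 in 1-day air, and 3162, 3572, 3425 and 3029 in 5-day smoke, against 5576, 5498, 5499.6 and 5232 in 5-day air. The lowest air value at 5 days was 5232, and the highest smoke value of either time was 3668. Its effect was −0.49 ± 0.08 (adjusted p = 0.0338). BANP, whose protein binds DNA motifs in CpG islands, ranged from 110 to 191 in smoke (median 167) and from 172 to 381 in air (median 228), with an effect of −0.60 ± 0.08 (adjusted p = 0.0243). BCS1L, a chaperone that assembles respiratory complex III, ranged from 138 to 183 in smoke (median 154) and from 178 to 291 in air (median 201). Its effect was −0.45 ± 0.08 (adjusted p = 0.0443). H4C14, a histone H4 gene, ranged from 38.2 to 75.9 in smoke (median 52.6) and from 62.4 to 130 in air (median 98.1), with an effect of −0.84 ± 0.14 (adjusted p = 0.0338). Histone H4 genes are nearly identical in sequence, so the share of reads given to H4C14 is uncertain. By RefSeq, JUNB, EIF4A2, HNRNPH3 and BANP also overlap neighbouring genes, and no source used here states whether counting used strand.

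Leaving out FA5D_1 raised the count of calls from the same 13794 genes to 1059, or 7.68%, with 488 higher (3.54%) and 571 lower (4.14%) in smoke. All 14 genes above were among them with the same sign. Most effects were small: 938 of the 1059 were under 0.5 on the log2 scale, 10 exceeded 1, and the median size was 0.275. In 796 of them all 7 remaining pairs had the same sign. This too is a description, since the same values chose the genes, and the share over all genes was not computed. Adding FA5D_1 back kept the sign of 969 and turned that of 90, and in 383 the 5-day pair of S1 itself had the sign of the call. DST, a basal cell linker of keratin filaments, was one that turned (−0.26 with 15 libraries, 0.02 with 16), and RFX3, a regulator of cilium genes, another (−0.33 and 0.01). Scaling by library totals alone moved the median over all genes to −0.0358 and split 1208 calls into 226 higher and 982 lower. Without a block for animal 62 genes were called. The 2 times of an animal are not separate animals, and with 1 value per animal the counts were 1 with FA5D_1 and 1237 without it. Without it the value of S1 is its 1-day pair alone, while those of S2, S3 and S4 are means over both times.

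**Figure D3:**
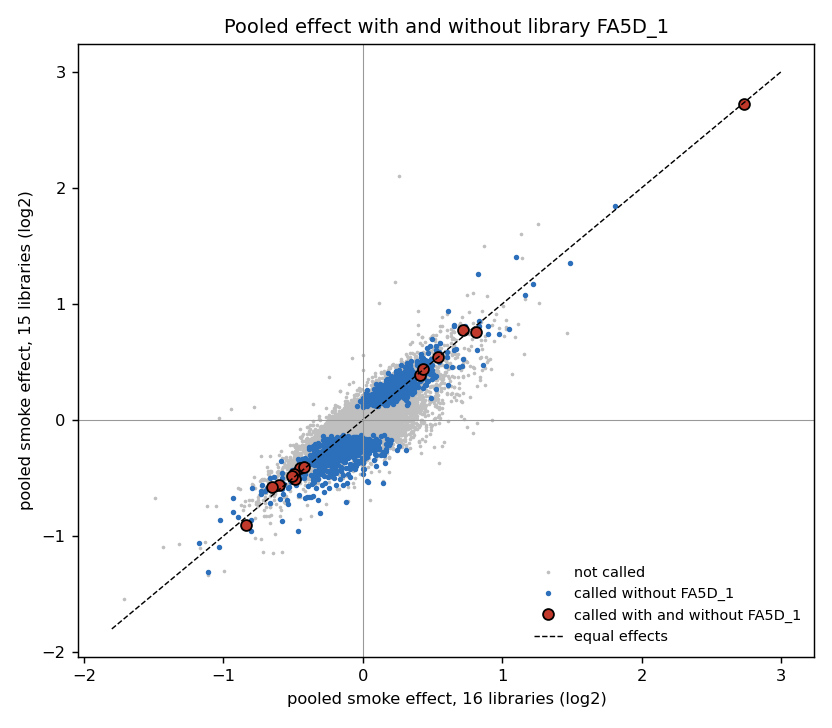
Pooled smoke effect of each of the 13794 genes (log2) with all 16 libraries (x axis) and without FA5D_1 (y axis). Red points are the 14 genes called in both fits and lie near the line of equal effects; blue points are the other genes called without FA5D_1, most of them within 0.5 of 0.

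NRF2 targets lay mostly above 0 in smoke. Of 24 tested, 23 had effects above 0 with 15 libraries and 21 with 16, and the medians were 0.161 and 0.144. With 15 libraries 9 were called higher and 1 lower, against 3.54% and 4.14% of all genes, and with 16 libraries 0 were called and 8 had an unadjusted p under 0.05. The glutathione peroxidase GPX2 (0.40 ± 0.07), chosen after its value was seen, the reductase AKR1C2 (0.44 ± 0.06) and the pentose phosphate enzyme PGD (0.33 ± 0.04) were among the 9. AKR1C genes are close paralogs, so reads can be split between them. NQO1 had 709, 622, 698 and 712 in 1-day smoke, against 477, 499.8, 543 and 615 in 1-day air, and 466, 827, 549 and 575 in 5-day smoke, against 328, 588, 353 and 502 in 5-day air. It was higher in smoke in 8 of 8 pairs, with an effect of 0.41 ± 0.11 that missed the threshold with 16 libraries (adjusted p = 0.222) and passed with 15 (adjusted p = 0.0316). HMOX1, heme oxygenase, did not follow: it was higher in smoke in 4 of 8 pairs, all of them at 1 day, with 52.0, 229.8, 143 and 73.8 in 1-day smoke, against 37.1, 113, 73.4 and 67.6 in 1-day air. At 5 days it had 74.2, 39.98, 82.3 and 73.9 in smoke, against 103, 109, 92.0 and 104 in air, without overlap in the lower direction. Its pooled effect of 0.00 ± 0.31 therefore averages opposite signs, and the difference between the times did not pass (adjusted p = 0.623).

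Cholesterol synthesis genes were also mostly above 0 in smoke, 20 of 22 with 15 libraries and 19 with 16, with medians of 0.251 and 0.193. With 15 libraries 11 were higher and 0 lower, against 3.54% and 4.14% of all genes, and 0 were called with 16, where 11 had an unadjusted p under 0.05. HMGCS1, which makes the HMG-CoA of the pathway, was higher in smoke in 8 of 8 pairs. Its 1-day values were 2296, 6051, 2972 and 2581 in smoke, against 1464, 3716, 1872 and 1879 in air, and its 5-day values 5684, 10355, 5215 and 3986 in smoke, against 905, 9755, 2949 and 2745 in air. FA5D_1, at 905, was the lowest, and S2 was high in both groups, so groups overlapped. The effect was 0.60 ± 0.09 without FA5D_1 (adjusted p = 0.0015) and 0.82 ± 0.21 with it. SQLE, squalene epoxidase, had 0.39 ± 0.06 (adjusted p = 0.00187). Hypoxia targets leaned the other way, with 15 of 18 below 0, a median of −0.207, and 6 lower and 0 higher with 15 libraries, against 4.14% and 3.54% of all genes. With 16 libraries 0 were called, 16 of 18 were below 0 and the median was −0.285. The prolyl hydroxylase P4HA1 (−0.59 ± 0.09, adjusted p = 0.00188) and the glycolytic regulator PFKFB3 (adjusted p = 0.00877) had the smallest p without FA5D_1. The effect of PFKFB3 was −0.67 ± 0.14 without FA5D_1 and −0.40 ± 0.27 with it (adjusted p = 0.699), and in the 5-day pair of S1 it was higher in smoke. Its effect also differed between the times without FA5D_1 (adjusted p = 0.0064), at −1.16 at 5 days in the other 3 animals and −0.23 at 1 day. Over the 18 hypoxia targets the median effect was −0.102 at 1 day and −0.558 at 5 days, or −0.500 at 5 days without S1. Without FA5D_1 the difference between the times was called for 3 of the 18, against 0.732% of all genes. Without a block for animal the 15-library fit called 0 NRF2, 1 cholesterol and 0 hypoxia genes. No glycolytic enzyme of 16 was called by limma in either fit, 2 had an unadjusted p under 0.05 with 15 libraries, and their median was −0.0706 with 15 libraries.

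The counts of the other stress and signalling lists are from the 15-library fit, where 3.54% of all genes were higher and 4.14% lower. With 16 libraries JUNB and EIF4A2 were the only members of these lists called. Of 18 targets of the amino acid stress factor ATF4, 3 were higher and 2 lower, with asparagine synthetase ASNS at 0.44 ± 0.09. The transporter subunit SLC3A2, also higher, had 0.30 ± 0.05 without FA5D_1 and 0.15 ± 0.14 with it. Of 22 other xenobiotic enzymes 4 were higher and 1 lower. ALDH1A3, which makes retinoic acid from retinal, had 9419, 7646, 4196 and 3144 in 1-day smoke, against 4095, 4155, 1769 and 1713 in 1-day air, and 3622, 6309, 1493 and 1975 in 5-day smoke, against 1169, 3619.9, 1346 and 1516 in 5-day air. It was higher in smoke in 8 of 8 pairs (0.74 ± 0.13, adjusted p = 0.00274), and was the only 1 of 13 retinoic acid genes called. The glucuronosyltransferase UGT1A1, which shares exons with its neighbours, had 0.33 ± 0.08. Among 24 translation initiation factors 5 were higher and 1 lower, the lower being EIF4A2. Immediate early genes had 4 higher and 3 lower of 24, with KLF6 (0.81 ± 0.19) and RHOB (0.66 ± 0.13) higher and JUNB, FOS (−0.55 ± 0.12) and IER5 lower. RHOB, FOS and IER5 are named after their values were seen. The effect of IER5 was −0.66 ± 0.19 without FA5D_1 and −0.37 ± 0.31 with it. RHOB, like KLF6, differed between the times without FA5D_1 (adjusted p = 0.0122), with 0.18 at 5 days in the 3 animals other than S1 and 1.04 at 1 day. Of the 24 immediate early genes 5 were called for this difference without FA5D_1, against 0.732% of all genes. Their median effect over the 24 was 0.380 at 1 day and −0.135 at 5 days, or −0.0944 at 5 days without S1. The EGF receptor list had 0 higher and 3 lower of 17, among them PHLDA1 (−0.72 ± 0.14), a feedback gene of growth factor signalling, and the Ras pathway inhibitor SPRED1 (−0.29 ± 0.05 without FA5D_1 and −0.16 ± 0.12 with it). Of 8 metallothionein and zinc transport rows 1 was higher, SLC30A2 (0.28 ± 0.05 without FA5D_1 and 0.13 ± 0.15 with it), and 1 lower, SLC39A10 (−0.35 ± 0.10 without FA5D_1 and −0.03 ± 0.29 with it). Interferon-stimulated genes had 1 higher (OAS2, 0.70 ± 0.17) and 3 lower of 19, with IRF1 at −0.34 ± 0.08. Of 20 p53 targets 2 were higher, TP53I3 (0.57 ± 0.15) and FDXR (0.34 ± 0.10 without FA5D_1 and 0.19 ± 0.17 with it). Of 18 clock genes PER3 was higher (0.47 ± 0.11 without FA5D_1 and 0.87 ± 0.36 with it) and PER2 lower (−0.35 ± 0.07 without FA5D_1 and −0.03 ± 0.29 with it). None of 17 cytokine and NF-kB feedback genes was called in either fit, and 2 had an unadjusted p under 0.05 with 15 libraries.

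**Figure D4:**
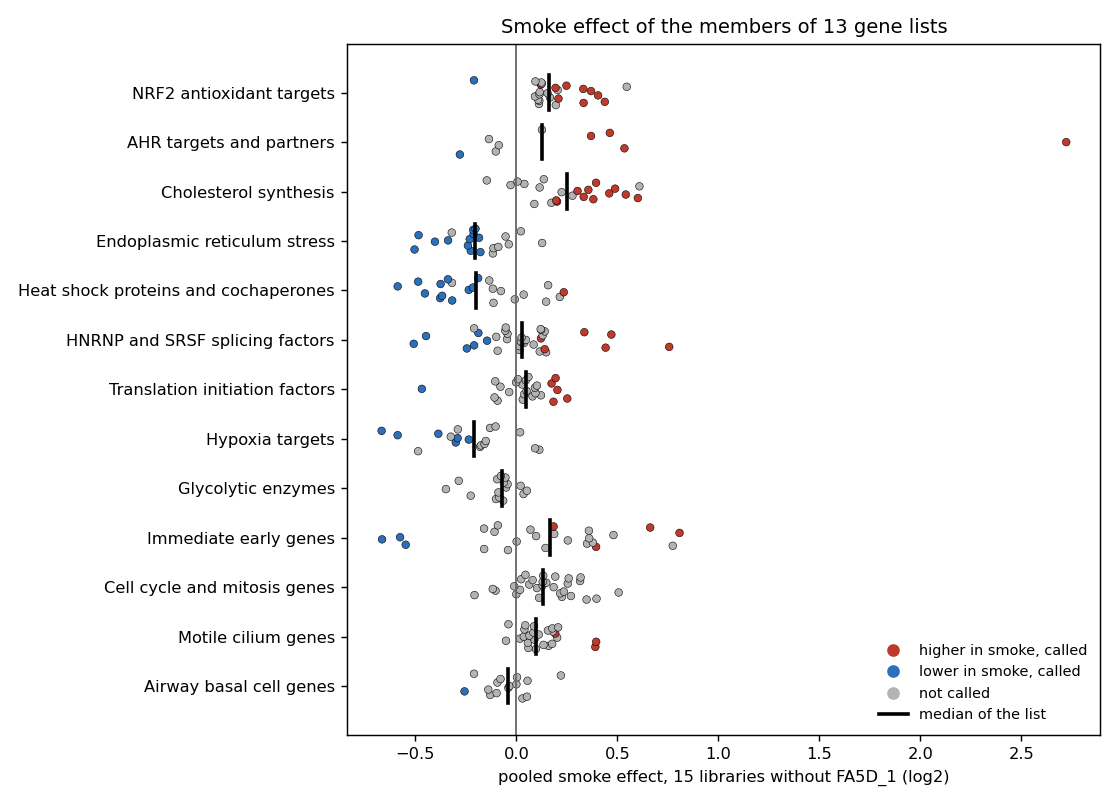
Pooled smoke effect without FA5D_1 (log2) of each tested member of 13 gene lists; red and blue points passed an adjusted p of 0.05, grey points did not, and black bars are medians. NRF2 and cholesterol genes lie mostly right of 0, endoplasmic reticulum and heat shock genes mostly left, and HNRNP and SRSF genes on both sides.

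No member of the lists for the cell types of the airway was called with 16 libraries. In the 15-library fit, where 3.54% of all genes were higher and 4.14% lower, 0 basal cell genes were higher and 1 of 15 (DST) lower, and 0 of 13 squamous genes were called, 4 of them having an unadjusted p under 0.05. KRT5, the basal keratin, ranged from 25245 to 53429 in smoke and from 23738 to 57575 in air, with an effect of −0.10 ± 0.09 (adjusted p = 0.781). Of 13 goblet and mucin genes 2 were higher and 2 lower, the lower being the disulfide isomerase AGR3 (−0.19 ± 0.05 without FA5D_1 and −0.32 ± 0.12 with it) and the sialyltransferase ST6GAL1 (−0.19 ± 0.05 without FA5D_1 and −0.10 ± 0.10 with it). Of 15 secretory defence genes 1 was higher, S100A9 (0.32 ± 0.07 without FA5D_1 and 0.17 ± 0.15 with it). SCGB1A1, the club cell marker, was low throughout, at 6.27 to 39.8 in smoke and 11.4 to 42.8 in air, and its effect was −0.10 ± 0.21 (adjusted p = 0.913). Motile cilium genes had 3 higher and 0 lower of 25, including DNAH12 (0.40 ± 0.11) and CFAP100 (0.39 ± 0.10), with 23 above 0 and a median of 0.0971, and 0 were called when values were scaled by library totals. Without a block for animal 4 of the 25 were above 0 and 0 were called. FOXJ1, the regulator of motile cilia, was not called (0.17 ± 0.15, adjusted p = 0.791), and 1 of 20 multiciliogenesis regulators was called, RFX3. Of 21 ion channel and transporter rows 1 was called lower, a row of the amino acid transporter SLC6A14 (−0.36 ± 0.09), whose other row was not called. TPH1, which makes serotonin and marks neuroendocrine and tuft cells, was the 1 higher gene of the 4 rare cell type markers tested (1.35 ± 0.28, adjusted p = 0.00726). It was higher in smoke in 8 of 8 pairs but differed widely between animals, from 0 in 5-day air of S3 to 146 in 5-day smoke of S2.

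Cell cycle genes were not called in either fit, although 25 of 29 had effects above 0 with 15 libraries (median 0.133), and 0 had an unadjusted p under 0.05 in that fit. The pooled median averages opposite signs: the list's median effect was −0.126 at 1 day and 0.614 at 5 days, or 0.455 at 5 days without S1. MKI67, a marker of dividing cells, had 1135, 324, 424 and 573 in 1-day smoke, against 1317, 449.9, 569.6 and 820.1 in 1-day air, lower in 4 of 4 animals. At 5 days it had 410.4, 59.8, 167 and 179 in smoke, against 59.7, 31.5, 95.03 and 56.5 in air, higher in 4 of 4. The pooled effect was 0.56 ± 0.33 (adjusted p = 0.642), and the difference between the times missed the threshold with 16 libraries (adjusted p = 0.308) and passed with 15 (adjusted p = 0.0133). The 13 mitochondrially encoded genes all had effects above 0 with 15 libraries (median 0.145) and 6 of 13 with 16, and ND3 was called with 15 (0.27 ± 0.07 without FA5D_1 and 0.08 ± 0.18 with it). The median effect of these 13 genes was −0.0561 at 1 day and 0.0460 at 5 days, or 0.449 at 5 days without S1. Of 21 matrix genes TIMP3 was higher (0.41 ± 0.12) and LOX lower (−0.29 ± 0.08) with 15 libraries, and 0 of 6 leukocyte and endothelial markers were called, with 1 at an unadjusted p under 0.05. Among all genes 3.54% were higher and 4.14% lower in that fit, the shares to set beside the calls of the mitochondrial and matrix lists. The part of cell makeup in the gene groups above was not tested.

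A pooled effect can hide effects that differ between the times, so the effect at 5 days minus that at 1 day was tested for each gene. With 16 libraries 5 genes were called (0.0362%), 1 higher (0.00725%) and 4 lower (0.0290%), and 1047 had an unadjusted p under 0.05. None of the 14 was among them. KLF6, an early-response transcription factor, overlapped between groups at 5 days, with 952, 1182, 696 and 678 in smoke, against 931, 1309.9, 641 and 732 in air. At 1 day it had 1909.6, 2306, 1358 and 1372 in smoke, against 594, 776, 555 and 509.6 in air, with all smoke values above all air values. Its difference of effects was −1.52 ± 0.13 (SE, adjusted p = 0.000608). RSRP1 was lower in smoke in 8 of 8 pairs, with a mean effect of −0.38 at 1 day and a larger one of −1.96 at 5 days. It had 121, 141, 152 and 218 in 5-day smoke, against 674, 573, 482 and 719 in 5-day air, and 147, 97.2, 134 and 144 in 1-day smoke, against 163, 129, 159 and 242 in 1-day air. The 5-day air libraries were the high ones, and the difference of effects was −1.58 ± 0.22 (adjusted p = 0.0275).

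The other 3 genes had opposite signs at the times. RGS2, a brake on G protein signalling, was higher at 5 days, with 257, 201, 288 and 273 in smoke, against 170, 105, 169.6 and 172 in air, and lower at 1 day, with 147, 99.4, 99.8 and 116 in smoke, against 203, 171, 178 and 199 in air. Neither time overlapped, and the difference of effects was 1.44 ± 0.19 (adjusted p = 0.0232). EPHA2, an ephrin receptor of epithelia, was lower at 5 days, with 2346, 2655, 2549 and 2421 in smoke, against 3247, 3738, 3269 and 3302 in air. At 1 day it was higher, with 2705, 2659, 2928 and 2619 in smoke, against 2237, 2218, 2266 and 2105 in air, and its difference was −0.75 ± 0.10 (adjusted p = 0.0232). AKAP17A, a protein kinase A anchor that also takes part in splicing, had a difference of −1.07 ± 0.13 (adjusted p = 0.0138), from an effect of −0.28 at 5 days and 0.79 at 1 day. Without FA5D_1 the count was 101 (0.732%), with 33 higher (0.239%) and 68 lower (0.493%), and EIF4A2 was then 1 of them (adjusted p = 0.00789), its effect being −0.70 at 5 days in the 3 other animals and −0.26 at 1 day. Without a block for animal 0 genes were called, with 355 at an unadjusted p under 0.05, and scaling by library totals, which moved the median over all genes to 0.164, left 3.

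After 7 days of recovery the smoke effect was measured in libraries that the pooled contrast does not use. Of the 14 genes, 0 were called with the sign they had during exposure, and 5 were called with the opposite sign: BANP, HNRNPD, GARS1, PDIA4 and HSP90B1. Among all genes 488 were called at recovery (3.54%), 164 higher (1.19%) and 324 lower (2.35%). Of the 8 genes lower during exposure 6 had recovery effects above 0, and of the 6 higher ones 5 had recovery effects below 0. Without FA5D_1 in the fit, which bears on the variances and animal terms only, 8 of the 14 were called with the opposite sign and 0 with the same, among 2649 calls (19.2%), 1234 higher (8.95%) and 1415 lower (10.3%).

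PDIA4 had 4522, 3268, 3077 and 4097 normalized counts in smoke libraries at recovery, against 3249, 1701, 2379 and 2720.1 in air, higher in 4 of 4 animals, with an effect of 0.60 ± 0.13 (SE, adjusted p = 0.0118). HSP90B1 was also higher in 4 of 4, at 14292, 9696, 11578 and 14522 in smoke, against 10929, 6243, 9608 and 10576 in air (0.44 ± 0.11, adjusted p = 0.037). The groups overlapped for both genes, since the air library of S1 lay above the lowest smoke library. BANP had 207, 169.9, 169 and 204 in smoke, against 139, 122, 113 and 120 in air, without overlap (0.60 ± 0.11, adjusted p = 0.00696). HNRNPD had 1457, 1251, 1276 and 1093 in smoke, against 1936, 1522, 1890.3 and 1634 in air, again without overlap (−0.46 ± 0.09, adjusted p = 0.00615). GARS1 had 1113, 1167, 945 and 911 in smoke, against 1449, 1522, 1449 and 1116 in air (−0.42 ± 0.08, adjusted p = 0.0091), lower in 4 of 4 animals. CYP1B1 no longer separated the groups, with 464, 627, 305 and 291 in smoke, against 322, 465, 367 and 381 in air (0.07 ± 0.30, adjusted p = 0.931). WDR13 (−0.04 ± 0.10), HNRNPH3 (0.04 ± 0.08) and H4C14 (−0.06 ± 0.19) were also near 0. JUNB kept its sign, lower in smoke in 4 of 4 animals, at a smaller size that did not pass (−0.19 ± 0.13, adjusted p = 0.486).

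**Figure D5:**
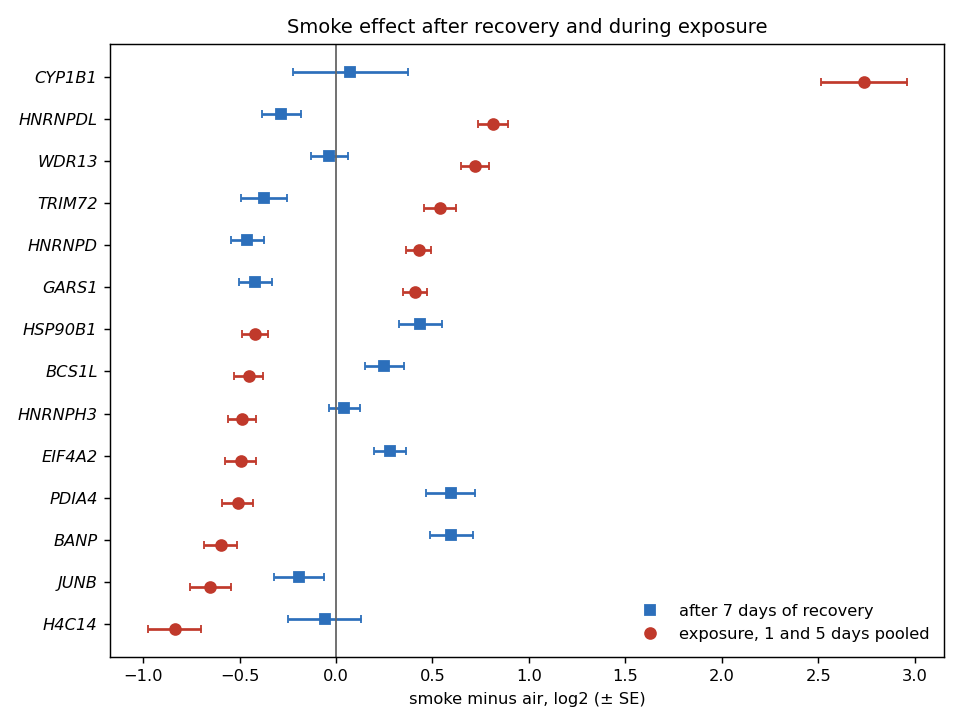
Smoke minus air effect (log2, with SE) of the 14 genes after 7 days of recovery (blue squares) and pooled over 1 and 5 days of exposure (red circles). BANP, PDIA4 and HSP90B1 lie above 0 at recovery and below 0 during exposure, HNRNPD and GARS1 the reverse, and CYP1B1 is near 0 at recovery.

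The same turn was seen over the chaperone lists. Of 20 endoplasmic reticulum stress genes, 19 had recovery effects above 0, with a median of 0.398, against −0.207 over the exposure times without FA5D_1. At recovery 8 were called higher and 0 lower, where 1.19% of all genes were higher and 2.35% lower. All 12 genes of this list that were lower during exposure without FA5D_1 lay above 0 at recovery, as did 10 of the 11 lower heat shock genes, against 309 of the 571 lower genes in all (54.1%). HSPA5 was at 0.76 ± 0.12 (adjusted p = 0.00163) and MANF, a secreted stress protein named after its value was seen, at 0.78 ± 0.12 (adjusted p = 0.00175). Among 22 heat shock genes 5 were called higher and 3 lower at recovery, against the same 1.19% and 2.35% of all genes. Of the 1059 genes called without FA5D_1, 71 were called at recovery, 18 with the same sign and 53 with the opposite one. Among all genes 3.54% were called at recovery. ALDH1A3 was 1 that kept its sign, with 9942, 14634, 6326 and 5233 in smoke at recovery, against 5959, 7133, 3309.6 and 2917 in air (0.89 ± 0.23, adjusted p = 0.0366). PHLDA1 (−0.91 ± 0.22) and IRF1 (−0.53 ± 0.14) stayed lower. At recovery the basal cell list also differed, with 0 of 15 above 0 and 7 called lower, against 2.35% of all genes. The cell cycle list had 27 of 29 below 0 and 3 called lower, against the same share. The part of these shifts in the recovery values above was not tested.

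The recovery effect minus the pooled effect was tested directly and gave 463 calls (3.36%), 185 higher (1.34%) and 278 lower (2.02%). It contains the pooled effect that chose the 14 genes, so its calls for 12 of them (14 of 14 without FA5D_1) describe the size of the turn and add no test of it. Without FA5D_1 all genes gave 2107 calls (15.3%), 989 higher (7.17%) and 1118 lower (8.10%). The smallest p belonged to HNRNPDL (−1.10 ± 0.12 SE), BANP (1.20 ± 0.14), HNRNPD (−0.89 ± 0.10), RSRP1 (1.65 ± 0.18) and EMP1 (−1.27 ± 0.16), with adjusted p of 0.000213 to 0.000347. EMP1, an epithelial membrane protein gene, did not pass in the pooled effect (−0.03 ± 0.12). At recovery it had 303, 303, 239 and 320.1 in smoke, against 749.9, 811, 577 and 739.6 in air, without overlap (−1.30 ± 0.13, adjusted p = 5.15e-05). RSRP1 had 319, 286, 271 and 325 in smoke at recovery, against 229.9, 169, 231 and 237 in air, higher in 4 of 4 animals and without overlap, but did not pass there with 24 libraries (0.48 ± 0.14, adjusted p = 0.0748).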

How the data were processed

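RNA was measured in 24 poly-A libraries of macaque airway cultures, of which 16 give the pooled smoke effect. Per the submitters' processing notes, FastQC, Trim Galore, Bowtie2 and RSEM were used. The genome build, annotation, counting strand and normalizing tool are named by none of the sources used here. No coordinates or sequences are therefore printed. The table deposited by the authors, named as raw counts, holds a normalized signal per gene: values are not whole numbers, and 77.0 to 82.8% of low values per library lay within 0.1 of a whole multiple of a step (0.727 to 1.61, taken as the worth of 1 read). Whole reads were thus not recovered, count tests were not used, and counting error cannot be computed. Approximate depth is the library total divided by the step.

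Of 35432 genes, 23817 have a symbol in the table and 720 others were named by the reference gene table (T2T-MMU8v2.0). Tests covered genes that reached 10 in 4 or more of the 16 libraries, 13794 in all (1485 without a symbol). The model on log2(value + 1) had smoke, time and animal as additive terms, in limma 3.58.1 (R 4.3.3) with variances that follow the mean. All p are two-sided, adjusted by Benjamini-Hochberg over the 13794 genes, and called under 0.05; every adjusted p printed is limma's. An edgeR fit had been planned for raw counts and was not run. Recovery contrasts used all 24 libraries, or 23. CYP1A1 was tested by exact sign flips. Animals are the labelled pairs: deviations from group means correlated at 0.386 to 0.818 between libraries of the same animal (median 0.652, 24 pairs) and at −0.638 to 0.131 between animals (median −0.206, 96 pairs). The fitting functions were checked on simulated data that held no outlier library, so this check does not cover the influence of FA5D_1.

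The members and the 32 gene lists were chosen with earlier results of these data known, and 4 lists were added later. Lists are described by counts and medians, with no set test. Named were the called genes with the largest effects, up to 3 called members of each list by p, the 5 smallest p for the difference between times and for recovery, and a few genes always given. Other genes are said to be named after their values were seen. Alternatives covered the block, scaling, filter, pseudocount, threshold, array weights and left-out libraries and animals.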

Additional observations from a re-analysis of the deposited data

Results flagged for a closer look

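In groups of 4, a library stood far from the other 3 in 22 of 252 groups of the named genes, where chance gives about 1 in 20. It did so in 4 groups of the library measures too, which are not among the 252, and 26 were flagged in all. The value given is the gap to the nearest library divided by the range of the group. The 5-day air library of S1 (FA5D_1) accounted for 9 of the 26. It was low in DST (0.975), PER3 (0.942) and SLC39A10 (0.898), and high in IRF1 (0.978), S100A9 (0.939) and ND3 (0.857). These 6 genes were named because they were called only without FA5D_1, so the chance rate is no measure for them. FA5D_1 also had a low median correlation to the other libraries (0.91), a high mitochondrial share (0.87) and a low share in the 10 most abundant genes (0.849). The animal S2 was high in AHRR in both 1-day smoke (0.93) and 1-day air (0.93). In 1-day smoke S2 was low in WDR13 (0.946) and NQO1 (0.851) and had the highest library total (0.911). In 1-day air it was high in SQLE (0.906) and low in BCS1L (0.856). In 5-day smoke it was low in CYP1B1 (0.881) and HMOX1 (0.85), and in 5-day air it was low in RGS2 (0.965) and high in EPHA2 (0.88). In 5-day smoke S3 was low in PHLDA1 (0.906), ST6GAL1 (0.891) and EMP1 (0.846), and S1 was high in TP53I3 (0.917) and S100A9 (0.835). In 1-day air S4 was high in DST (0.888).

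Among 63 named genes, the smoke effect differed between conditions in 28 tests of a difference (limma adjusted p under 0.05). Over all genes tested, 0.0362% were called for 5 days minus 1 day and 3.36% for recovery minus pooled. For 5 days minus 1 day the log2 differences were −1.58 for RSRP1, −1.52 for KLF6, 1.44 for RGS2, −1.07 for AKAP17A and −0.748 for EPHA2. For recovery minus the pooled exposure times, genes with a positive difference were RSRP1 (1.65), BANP (1.2), AGR3 (1.15), PDIA4 (1.11), P4HA1 (0.907), HSP90B1 (0.859), NKTR (0.836), EIF4A2 (0.774), BCS1L (0.703), HSPD1 (0.68) and HNRNPH3 (0.531). Genes with a negative difference were CYP1B1 (−2.66), MKI67 (−2.42), EMP1 (−1.27), KRT5 (−1.12), HNRNPDL (−1.1), UGT1A1 (−0.979), TRIM72 (−0.911), HNRNPD (−0.888), GARS1 (−0.827), WDR13 (−0.755), KLF6 (−0.747) and SRRM1 (−0.637). For the genes called in the pooled effect, this contrast contains the effect that chose them. The genes given for 5 days minus 1 day were named for their p in that contrast. RSRP1, HNRNPDL, BANP, HNRNPD and EMP1 had the smallest p for recovery minus pooled, which the naming also used. Those calls were fixed in advance.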

How the results depend on the processing

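Counts of called genes moved with the libraries used and with the variance model, and except where a construction is named the cause was not tested. With 16 libraries (14 genes), 4 were called with no replicate block, 1 with a single value per animal, 4 with no trend, 1520 with array weights (FA5D_1 then had a weight of 0.0253), 45 at an adjusted p of 0.1, 8 with an added log2 minimum of 0.5, 139 with all 24 libraries and 1114 without both 5-day libraries of S1. Leaving out 1 library or 1 animal gave 1 to 1059 (1059 without FA5D_1, 772 without S1, and no more than 2 without S2, S3 or S4). With 15 libraries (1059), the counts were 62 with no replicate block, 671 with no filter, 592 with no trend, 1681 with array weights, 1866 at 0.1, 121 with the 0.5 minimum and 14 with FA5D_1, and 109 to 1268 with 1 library or animal left out. The 5-day minus 1-day difference (5) had 0 calls with no replicate block, 3 with library totals, 197 with array weights and 0 to 101 with 1 library or animal left out. Recovery minus pooled (463) had 62 with no replicate block, 2329 with array weights, 869 at 0.1 and 11 to 2107 with 1 library or animal left out. The CYP1A1 difference was 1.77 to 2.70 with 1 left out, and with a single value per animal it was 2.29 with an exact sign-flip p of 0.125, the smallest that 16 assignments allow. Library totals, TMM, pseudocounts of 0.5 and 5, the block as a random effect and a filter of 50 kept the 16-library count at 12 to 21. Without the block CYP1B1, HNRNPDL, WDR13 and HNRNPH3 were still called. Of uncalled genes, SCGB1A1 turned to 0.0404 with array weights and ranged from −0.274 to 0.184 with 1 library or animal left out, and HMOX1 from −0.218 to 0.269. DST was 0.0236 and RFX3 0.00771 with FA5D_1. No counting error can be had from normalized values, so genes with low values rest on the spread between 4 animals alone.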

Other observations

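Gene groups for protein production and breakdown were looked at after the values had been seen, so their counts carry no test. All 31 proteasome subunit genes tested, which build the complex that degrades ubiquitinated proteins, had effects above 0 in smoke without FA5D_1 (median 0.146), and 10 were called higher and 0 lower, against 3.54% and 4.14% of all genes. With 16 libraries 26 of 31 were above 0 and 0 were called, and with library totals as the scaling 1 was called. Of 21 aminoacyl tRNA synthetase rows, which charge tRNAs with amino acids, 19 were above 0 without FA5D_1 (median 0.121) and 7 were called higher, GARS1 among them, against the same 3.54% of all genes. With 16 libraries GARS1 was the 1 called. Of 25 ribosome biogenesis genes 22 were above 0 without FA5D_1 (median 0.0961), and 2 were called higher, against the same 3.54% of all genes. These were NCL (0.22 ± 0.04) and WDR43 (0.24 ± 0.07 without FA5D_1 and 0.37 ± 0.14 with it). The 8 subunits of the TRiC chaperonin, which folds actin and tubulin, had 0 calls by limma, 0 at an unadjusted p under 0.05 and 4 above 0.

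A further 31 genes had an adjusted p between 0.05 and 0.1 with 16 libraries, and those named here were chosen after their values were seen. CDC25B, a phosphatase that starts mitosis, was at 0.83 ± 0.15 (adjusted p = 0.0543). TOP1, topoisomerase I, was at −0.31 ± 0.05, and DNAJA1, a cochaperone of HSP70, at −0.38 ± 0.07. SOCS3, a feedback inhibitor of cytokine signalling, was at −0.89 ± 0.19 (adjusted p = 0.0956), CEACAM7, an epithelial adhesion protein, at −1.03 ± 0.19, and INSIG1, a sterol sensor, at 0.61 ± 0.11.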
